A study of Mus musculus with 59 samples.

Results

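The 35 genes described here mark the blood vessels and the coverings of the brain: endothelial cells, pericytes, arterial smooth muscle, the vascular basement membrane, and the fibroblast-like cells of the meninges. They were chosen by symbol from known cell type markers, and all 35 were found among the 57180 gene rows of the count table, 1 row each. Cortex and hippocampus of 30 male mice gave 59 libraries of poly(A)-selected RNA, and both tissues were taken from 29 animals. The labels name 4 genotypes: wild type (Mrpl40 +/+, Slc25a1 +/+; WT), Slc25a1 het (Mrpl40 +/+, Slc25a1 -/+), Mrpl40 het (Mrpl40 -/+, Slc25a1 +/+) and double het (Mrpl40 -/+, Slc25a1 -/+). In that order cortex had 9, 7, 7 and 7 libraries and hippocampus 8, 7, 7 and 7. Slc25a1 makes the citrate carrier of mitochondria and Mrpl40 a protein of the mitochondrial ribosome. No treatment is named, and the sources used here do not give age, strain or the design of the alleles. Replicate numbers are separate animals, per the animal numbers in the labels.

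Brain capillaries are lined by endothelial cells whose tight junctions and transporters form the blood-brain barrier. Pericytes sit on the capillary wall inside a shared basement membrane, and smooth muscle cells wrap arterioles. The meninges (dura, arachnoid and pia) hold collagen-producing fibroblasts and barrier cells, and the pia follows large vessels into the tissue, so that a dissected piece of brain carries as much of these coverings as was left on it. In bulk tissue, fewer cells of a type and less RNA per cell cannot be told apart.

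Promoter entries of RefSeq (build GRCm38.p6) matched 25 of the 35 genes. Over the 250 bases before a gene's start, the letters TATAAA were searched on both strands. They were found in 5 of the 25 genes (Col3a1, Flt1, Ly6c1, Ogn and Vtn) in at least 1 of the gene's entries, and in 12.4% of 32851 such windows of all genes. The windows of an endothelial gene with similar levels in the tissues (Flt1) and of a pair of fibroblast genes higher in hippocampus (Ogn and Col3a1) are shown, since their values are compared below. None of the 3 windows overlaps an exon of the GENCODE annotation, and capitals mark each match. A match is a string of letters, not a site.
Flt1, chr5:147726012-147726261, minus strand: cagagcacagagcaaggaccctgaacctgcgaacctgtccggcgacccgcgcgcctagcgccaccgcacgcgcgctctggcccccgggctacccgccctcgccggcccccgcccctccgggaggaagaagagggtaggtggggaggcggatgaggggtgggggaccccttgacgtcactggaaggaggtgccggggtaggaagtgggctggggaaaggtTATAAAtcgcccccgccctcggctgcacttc
Ogn, chr13:49607765-49608014, plus strand: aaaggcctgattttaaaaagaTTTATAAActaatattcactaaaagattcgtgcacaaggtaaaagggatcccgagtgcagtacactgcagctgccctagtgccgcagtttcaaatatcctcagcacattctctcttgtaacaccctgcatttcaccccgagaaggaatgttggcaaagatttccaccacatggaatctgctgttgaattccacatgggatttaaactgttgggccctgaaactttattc
Col3a1, chr1:45311288-45311537, plus strand: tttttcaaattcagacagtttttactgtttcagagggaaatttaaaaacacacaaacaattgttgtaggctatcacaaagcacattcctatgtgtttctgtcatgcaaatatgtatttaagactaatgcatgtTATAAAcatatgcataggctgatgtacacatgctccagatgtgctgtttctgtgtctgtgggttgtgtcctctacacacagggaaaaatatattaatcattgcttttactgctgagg
The match of Flt1 begins 31 bases before the start and that of Col3a1 117 bases before it. In Ogn the 2 matches overlap on opposite strands, beginning 229 and 227 bases before the start.

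The basement membrane pair, Col4a1 and Col4a2, lies head to head on chromosome 8. Col4a1 runs on the minus strand (chr8:11198423-11312826) and Col4a2 on the plus strand (chr8:11312805-11449287), so that their first exons share 22 bases. The shared stretch, chr8:11312805-11312826, is shown as the plus strand of GRCm38.p6, because both first exons cover it, on opposite strands.
Col4a1 and Col4a2: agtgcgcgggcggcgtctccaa
The library kit keeps the strand, but the sources used here do not say whether the authors' counting used it. Ly6c1 has near-identical neighbours of its family, and its value may include their reads.

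Library totals ranged from 21443017 to 32120906 counts. Levels are given as CPM, the counts of a gene scaled to 1e+06 counts of the library, and each of the 35 genes passed the filter on low counts in the 3 fits reported here (cortex, hippocampus and both tissues). The dissected pieces carried the markers of their labels: 7 cortical markers summed to 1519 to 2047 CPM in cortex and 285 to 479 CPM in hippocampus, and 8 hippocampal markers to 220 to 288 and 986 to 1973 CPM. In 6 animals, 2 each of WT, Slc25a1 het and double het, the Slc25a1 level went against the label, and Mrpl40 averaged 17.9 ± 1.52 CPM (SD, n = 9) in cortex labelled WT and 17.3 ± 1.61 CPM (SD, n = 7) in cortex labelled Mrpl40 het, so that its RNA does not tell the groups apart. Genotypes below are those of the labels. Of the hippocampus libraries, 4 stood apart in markers of cerebellum, choroid plexus, ependyma or hippocampus. Counts of genes called between tissues that changed without the 6 animals, or without the animals of these 4 libraries, are given without them too. In the latter case both libraries of each animal were left out.

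Endothelial receptors and junction genes were expressed at moderate, even levels. Flt1, a receptor for vascular endothelial growth factor (VEGF), had a cortical level of 64.5 ± 6.40 CPM (SD, n = 30) and a hippocampal level of 61.7 ± 8.12 CPM (SD, n = 29). Its lowest, median and highest cortical values were 52.3, 65.0 and 79.6 CPM, and the hippocampal ones 46.9, 62.2 and 73.6 CPM, so that the tissues overlapped over most of their range. Kdr, the main signalling receptor for VEGF, was lower, at 12.5 ± 1.20 CPM (SD, n = 30) in cortex. Pecam1, an adhesion protein of endothelial contacts, ranged from 14.3 to 23.1 CPM in cortex and from 13.9 to 25.9 CPM in hippocampus. The angiopoietin receptor Tek, its partner Tie1, the junction proteins Cdh5 and Esam, the TGF-beta co-receptor Eng, and Ly6c1 and Itm2a had tissue means from 11.7 to 35.5 CPM. Emcn, a sialomucin of veins and capillaries, was the lowest of this group (5.55 CPM in cortex). Vwf, the clotting factor carrier stored in endothelial cells of larger vessels, varied more than the rest: from 9.26 to 26.3 CPM in cortex and from 11.5 to 35.8 CPM in hippocampus.

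Among barrier transporters, Slc2a1, the glucose transporter of the barrier, had 64.6 ± 5.87 CPM (SD, n = 30) in cortex. Slco1a4, an organic anion transporter, had 44.4 ± 4.32 CPM, Abcb1a, the P-glycoprotein efflux pump, 26.8 ± 3.04 CPM, and Mfsd2a, which carries docosahexaenoic acid as lysolipid, 14.7 ± 1.66 CPM (each SD, n = 30). The pericyte genes were as even: Rgs5, a regulator of G-protein signalling, ranged from 68.7 to 93.6 CPM in cortex, and Pdgfrb, the receptor that recruits pericytes to vessels, from 23.3 to 33.5 CPM. Vtn, vitronectin, averaged 55.1 ± 5.04 CPM (SD, n = 30). Col4a1 and Col4a2, the chains of the main collagen IV of vessel walls, averaged 61.6 ± 4.73 and 88.1 ± 8.63 CPM (SD, n = 30).

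Smooth muscle genes were sparse. Acta2, smooth muscle actin, had a mean cortical level of 4.15 ± 1.36 CPM (SD, n = 30) and a mean hippocampal level of 8.81 ± 2.12 CPM (SD, n = 29), and Myh11, smooth muscle myosin, 5.62 ± 1.51 and 10.1 ± 1.83 CPM. Tagln, an actin-binding protein of the same cells, was near the floor of detection, at 0.296 ± 0.142 CPM in cortex, with 2 counts in its lowest library. Its SD within genotypes was 0.57 in cortex and 0.45 in hippocampus on the log2 CPM scale. Counting error alone gives about 0.51 and 0.47, worked out without the prior count that narrows the observed SD. The comparison is therefore rough, and at these counts little can be read from its values.

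The meningeal and fibroblast genes spanned the widest range of levels. Ptgds, prostaglandin D synthase, made by arachnoid and other meningeal cells and also by oligodendrocytes and choroid plexus, ranged from 86.6 to 638 CPM in cortex (median 258) and from 80.4 to 260 CPM in hippocampus (median 113). Col1a2, a chain of fibrillar collagen I, ranged from 4.14 to 21.9 CPM in cortex (median 9.79) and from 6.72 to 17.7 CPM in hippocampus (median 9.61). Slc6a13, a GABA and taurine transporter of the meninges, ranged from 0.975 to 14.8 CPM in cortex and from 4.17 to 11.8 CPM in hippocampus. Igf2, a growth factor of meninges and choroid plexus, averaged under 1 CPM in each tissue (0.720 and 0.905), with 1 count in its lowest library. Scaled by exon length, which allows genes to be compared, cortical means ran from 0.126 CPM per kilobase for Igf2 through 0.830 for Col1a2, 4.77 for Flt1 and 17.7 for Rgs5 to 158 for Ptgds.

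**Figure D1:**
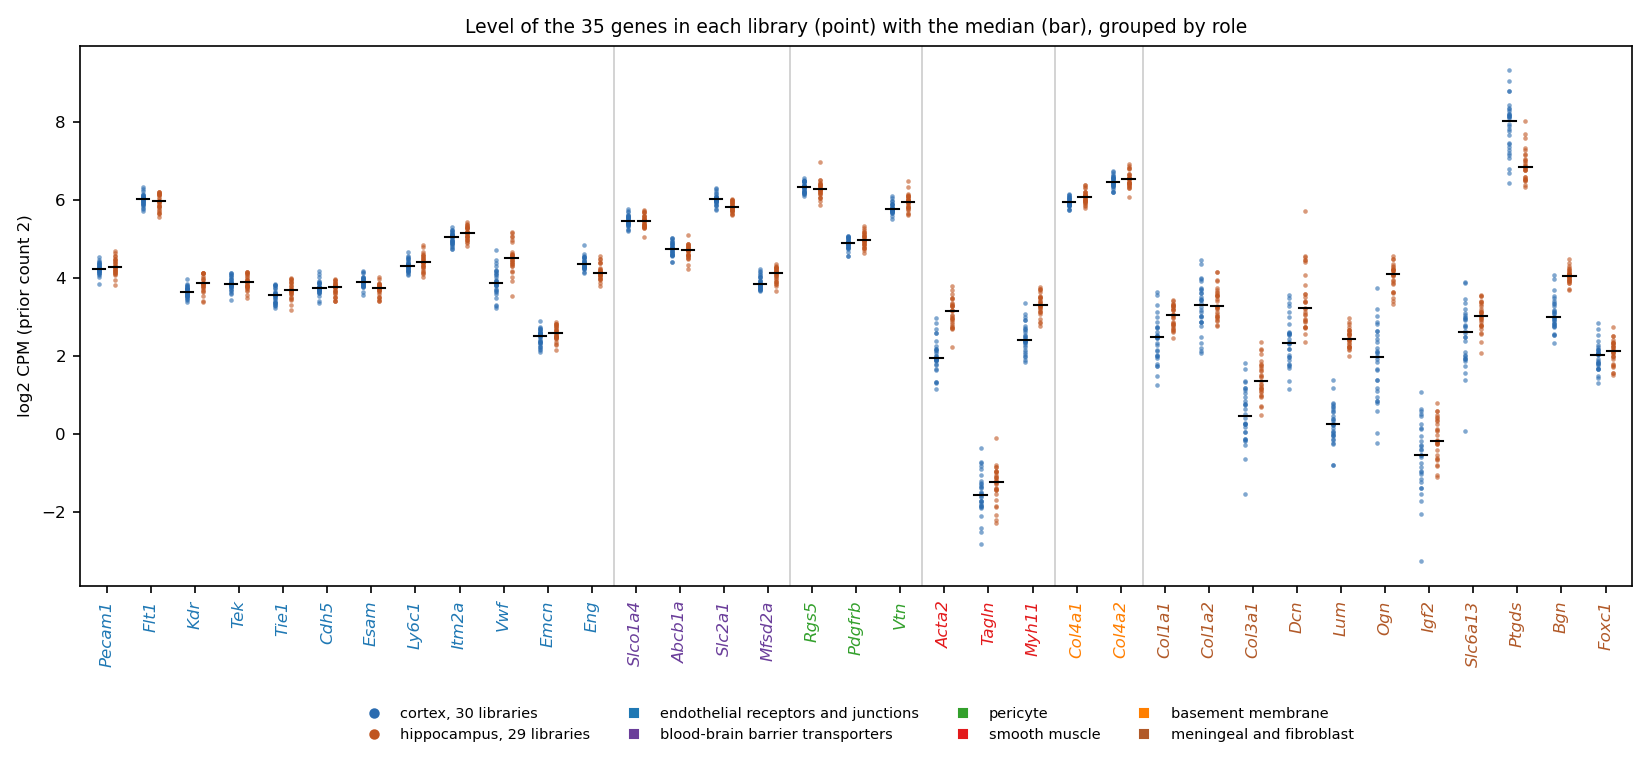
Level of each of the 35 genes (log2 CPM, prior count 2, vertical axis) in each cortex (blue) and hippocampus (orange) library, with the median of each tissue as a bar and gene names coloured by role. Points of most endothelial, barrier, pericyte and collagen IV genes lie close together, with Vwf as an exception. Most meningeal genes spread widely in cortex, Ogn over 0.787 to 13.3 CPM.

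The genes differed most in how much they varied between animals of 1 genotype. On the log2 CPM scale, the SD within genotypes in cortex had a median of 0.15 over the 12 endothelial genes, 0.15 over the 4 barrier transporters, 0.13 over the 3 pericyte genes and 0.13 over the collagen IV pair. It was 0.63 over the 11 meningeal and fibroblast genes, from 0.35 (Foxc1) to 0.96 (Ogn). Wide spread was not theirs alone. The 3 smooth muscle genes had a median of 0.43, from 0.35 (Myh11) to 0.57 (Tagln), and Vwf was the highest endothelial gene at 0.33. The median over all 20394 genes tested in cortex was 0.15. Ogn (osteoglycin, a small proteoglycan of matrix) lay at the 99.9th percentile, Igf2 at 99.8, Slc6a13 at 99.7, Col3a1 at 99.5 and Ptgds at 99.2. Counting error was a small share for Ptgds (0.017 of 0.68) and Ogn (0.13 of 0.96). The share was larger for Igf2 (0.33 of 0.91) and Lum (0.25 of 0.49). In hippocampus the median SD of the 11 genes was 0.36. Dcn (decorin) was the exception there, with an SD of 0.78 and values from 5.03 to 52.6 CPM, the highest in WT replicate 2.

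The cortical extremes fell on the same few libraries. Of the 11 meningeal genes, the highest cortical level was in WT replicate 8 for 5 (Col1a1, Col1a2, Ogn, Igf2 and Ptgds) and in double het replicate 1 for the other 6 (Col3a1, Dcn, Lum, Slc6a13, Bgn and Foxc1). In WT replicate 8, Ptgds was at 638 CPM against a WT median of 224, and Col1a2 at 21.9 CPM against 8.68. Vascular genes were mixed in the same library. Flt1 was at 62.9 CPM, close to the WT median of 65.2 CPM, and Kdr at 13.1 CPM was also inside the range of the other WT libraries. Cdh5 (18.0 CPM), Tek (17.5 CPM) and Itm2a (39.1 CPM) had their highest cortical level there, and Vtn (65.5 CPM) its highest WT level. Markers of perivascular macrophages, which sit in the same spaces, summed to 2.45 to 11.0 CPM over the cortex libraries and were highest in WT replicate 8. None of their 6 markers was at 0 in every library, and their part in the result was not tested. Blood genes summed to 79.6 to 178 CPM and were highest in double het replicate 1, which was not tested either.

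Within cortex, the meningeal genes moved together from animal to animal. Over log2 CPM minus the genotype mean, Pearson's r between Col1a2 and Ptgds was 0.958 and Spearman's rho 0.963 (n = 30, two-sided permutation test, adjusted p = 2.67e-05 and 3e-05 over 24 pairs), and r was 0.942 without the 2 libraries farthest from the median of Col1a2. This adjusted p follows from 1e-05, the smallest that 100000 resamples can give. Slc6a13 and Ptgds gave r = 0.941 and rho = 0.96, Col1a2 and Dcn 0.884 and 0.875, and Igf2 and Slc6a13 0.817 and 0.832. Over all 55 pairs of the 11 genes, r ranged from 0.62 to 0.969 with a median of 0.869, given as a description. The libraries share their dissection and depth, which these values do not separate.

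In hippocampus these relations were looser. Col1a2 and Ptgds gave r = 0.769 and rho = 0.789 (n = 29, permutation adjusted p = 2.67e-05 and 3e-05), and Col1a2 and Dcn 0.411 and 0.408 (permutation adjusted p = 0.0361 and 0.0437). The median over the 55 pairs was 0.402, with a lowest r of -0.108. Whether the correlations differ between tissues was not tested.

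**Figure D2:**
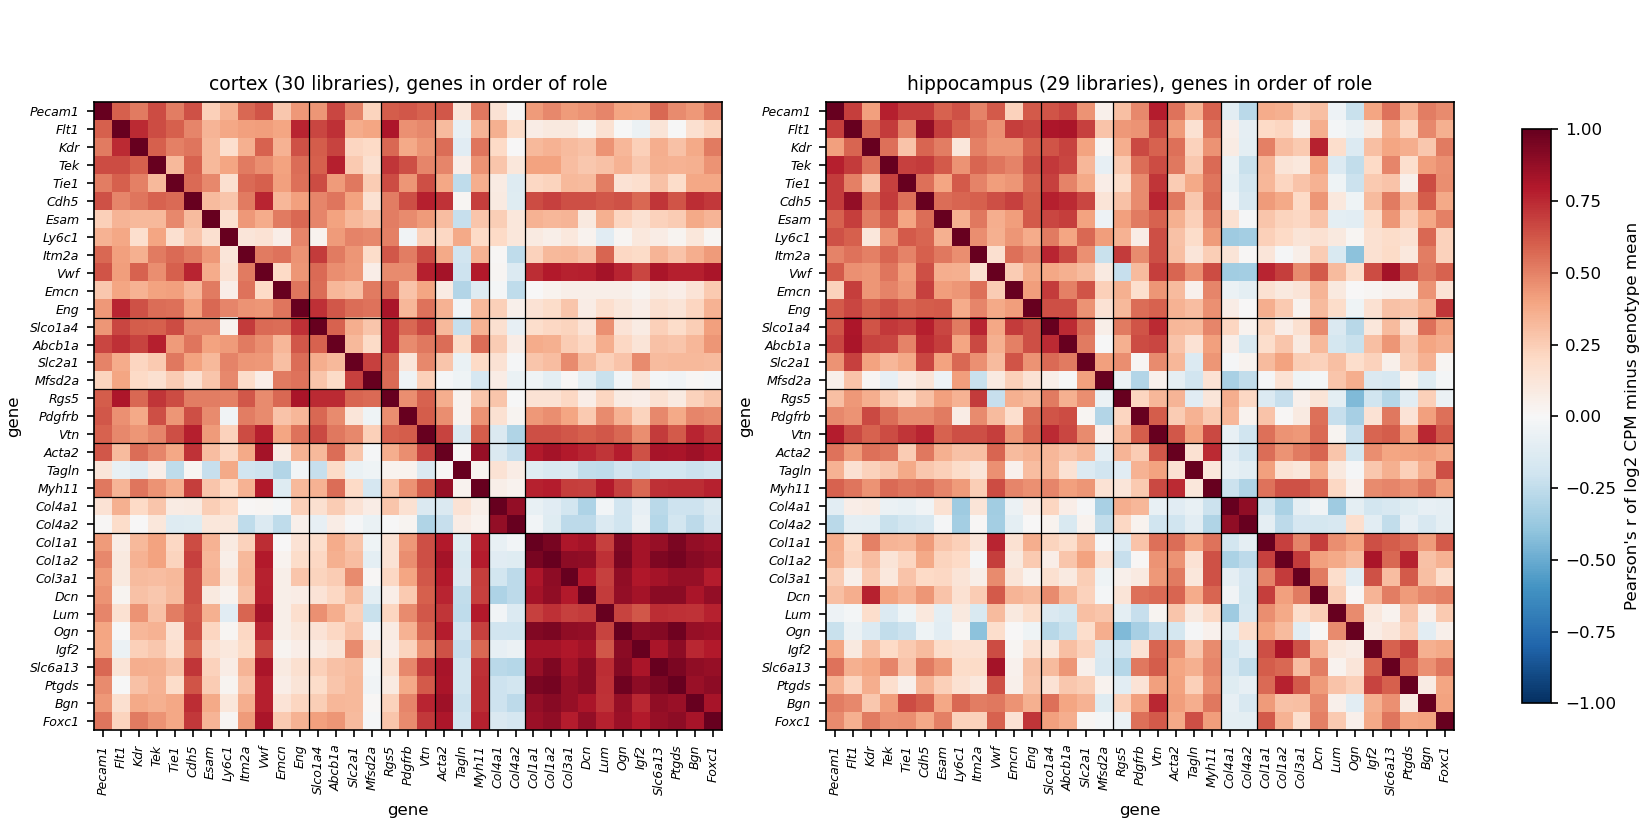
Pearson's r of log2 CPM minus the genotype mean for each pair of the 35 genes (colour scale from -1 to 1) in 30 cortex and 29 hippocampus libraries, with lines between roles. In cortex the 11 meningeal genes form a block of r from 0.62 to 0.969, and Vwf, Cdh5, Vtn, Acta2 and Myh11 correlate with many of them, while the collagen IV pair stands alone.

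Endothelial genes varied together as well, and with pericyte and barrier genes. As a description, the median r over their 66 pairs was 0.472 in cortex and 0.549 in hippocampus. With the pericyte genes it was 0.509 and 0.473, with the barrier transporters 0.472 and 0.501, and with the meningeal genes 0.312 (from -0.116 to 0.83) and 0.262 (from -0.408 to 0.835). Flt1 and Cdh5 gave r = 0.49 and rho = 0.553 in cortex (n = 30, permutation adjusted p = 0.0112 and 0.00351) and 0.876 and 0.844 in hippocampus (n = 29, permutation adjusted p = 2.67e-05 and 3e-05). Flt1 and the pericyte gene Rgs5 gave r = 0.809 and rho = 0.776 in cortex and 0.434 and 0.567 in hippocampus. The relation to the fibroblast genes differed from one endothelial gene to the next. Flt1, the endothelial gene chosen for the test, was among the lowest in cortex: with Col1a2, r was 0.098 and rho 0.119 in cortex (n = 30, permutation adjusted p = 0.725 and 0.635) and 0.211 and 0.207 in hippocampus. Acta2 followed Myh11 (r = 0.872 in cortex, 0.746 in hippocampus). In cortex Acta2 also followed Col1a2 (r = 0.833, rho = 0.802) more visibly than Flt1 (r = 0.313, rho = 0.375, n = 30, permutation adjusted p = 0.122 and 0.0563), a difference that was not itself tested. Other endothelial genes followed the fibroblast genes in cortex, given as a description: r to Col1a2 was 0.79 for Vwf, 0.686 for Cdh5 and 0.477 for Pecam1. Cdh5 was also at 0.714 to Slc6a13 and 0.74 to Bgn, above its 0.49 to Flt1, and Vwf at 0.835 to Acta2. Among pericyte genes, r to Col1a2 in cortex was 0.647 for Vtn, 0.463 for Pdgfrb and 0.148 for Rgs5. Vtn was at 0.762 to Bgn and 0.48 to Flt1. The median r of meningeal with pericyte genes was 0.435 in cortex and 0.137 in hippocampus. With smooth muscle genes it was 0.715 and 0.414. Col4a1 and Col4a2 followed each other (r = 0.881 in cortex and 0.888 in hippocampus, as a description), and their 22 pairs with meningeal genes in cortex had r from -0.307 to -0.0275.

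Choroid plexus also makes Igf2 and Ptgds, and its defining transcript Ttr, transthyretin, ranged from 0.0995 to 8.03 CPM in cortex and from 0.266 to 56.7 CPM in hippocampus. Ptgds and Ttr gave r = 0.0216 and rho = 0.00556 in cortex and 0.00794 and -0.0714 in hippocampus, and Igf2 and Ttr 0.0405 and -0.0661, and -0.0706 and -0.0419. None of the 4 passed the test (smallest permutation adjusted p = 0.793). The 10 choroid plexus markers summed to 3.43 to 15.4 CPM in cortex and 21.1 to 99.6 CPM in hippocampus, and none was at 0 in every library. In WT much of this gap came from 1 marker, Kl. It averaged 23.0 CPM in hippocampus, where the median sum was 30.9 CPM, and 2.62 CPM in cortex. Ttr averaged 3.25 and 1.65 CPM.

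**Figure D3:**
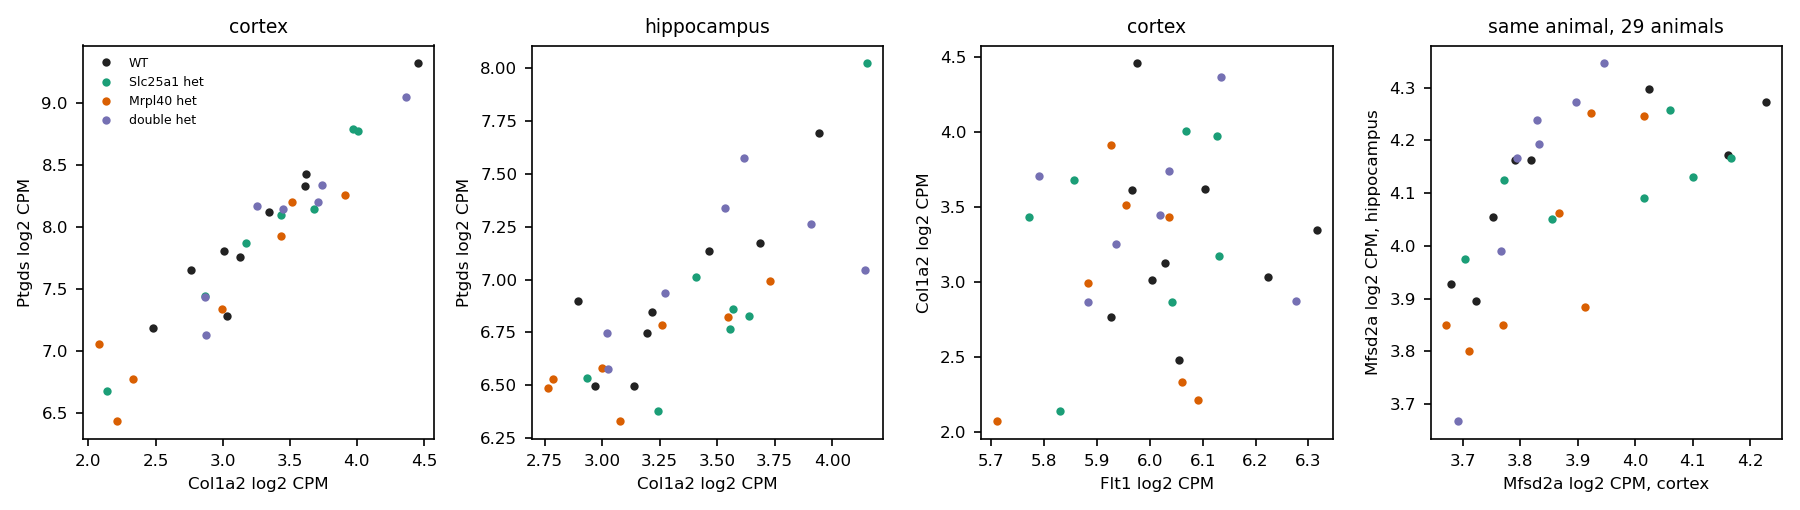
Log2 CPM per library, coloured by genotype: Ptgds against Col1a2 in cortex and in hippocampus, Col1a2 against Flt1 in cortex, and Mfsd2a in hippocampus against cortex of the same 29 animals. Ptgds rises with Col1a2 (r = 0.958 in cortex after the genotype means were removed), Col1a2 shows little slope on Flt1 (r = 0.098), and Mfsd2a levels follow the animal (r = 0.67).

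Genes outside the set whose cortical pattern was most like 4 chosen members were listed over 16164 genes and 30 libraries. For Col1a2 they were Bmp6 (r = 0.963), Aebp1 (0.956), Slc6a20a (0.949) and Pcolce (0.938). For Slc6a13 they were Bmp6 (0.959), Aldh1a2 (0.955), Slc22a6 (0.941) and Fam180a (0.937). For Acta2 they included Cp (0.931), Cped1 (0.869) and Colec12 (0.857), and for Flt1 they were Fads1 (0.84), Nwd1 (0.806), Adgrf5 (0.791) and Gm37069 (0.759). In hippocampus, over 16118 genes and 29 libraries, the nearest gene was Fmod for Col1a2 (0.833), Gjb2 for Slc6a13 (0.853), Chp2 for Acta2 (0.797) and Yap1 for Flt1 (0.815).

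Levels in 1 tissue rarely followed those in the other tissue of the same animal. Over 29 animals and 35 genes, the median r between tissues was 0.0264, and 1 gene passed the test. It was Mfsd2a, with r = 0.67 and rho = 0.751 (permutation adjusted p = 0.0049 and 0.00035 over 35 genes) and r = 0.697 without the 2 animals farthest from the median. Its levels ran from 12.7 to 18.7 CPM in cortex and from 12.6 to 20.3 CPM in hippocampus. Next were Col4a2 (r = 0.51, rho = 0.454) and Lum (r = -0.5, rho = -0.43), neither past the test (permutation adjusted p = 0.0656 for r and 0.242 for rho in each). The 11 meningeal genes had a median r of -0.0386, and the 12 endothelial genes 0.162.

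Hippocampus and cortex were compared within animals, by edgeR's quasi-likelihood test with the animal as a block and Benjamini-Hochberg adjustment over 21354 genes at 0.05. In WT, 14 of the 35 genes passed (background 60.6% of all genes), 9 of them higher (background 30.4%) and 5 lower in hippocampus (background 30.1%). For Slc25a1 het the count was 17 (background 60.4%), with 13 higher (30.5%) and 4 lower (29.9%). For Mrpl40 het it was 16 (background 60.3%), with 13 higher (30.8%) and 3 lower (29.4%), and for double het 12 (background 57.5%), with 11 higher (28.9%) and 1 lower (28.6%). Each total is a smaller share of the 35 genes than the background (40%, 48.6%, 45.7% and 34.3% in that order). When the 6 animals at odds with their label were left out, the counts were 13, 11, 16 and 10 in that order, and the Slc25a1 het genes that no longer passed were Col3a1, Dcn, Kdr, Tie1, Vtn and Vwf. Without the animals of the 4 hippocampus libraries the counts were 14, 17, 16 and 10. Col1a1 then passed in WT and Slc6a13 in Mrpl40 het, in place of Abcb1a and Ptgds.

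The fibroblast matrix genes had the largest differences. Lum (lumican, a proteoglycan that organises collagen fibrils) had 0.504 to 2.52 CPM in cortex (median 1.12) and 3.91 to 7.75 CPM in hippocampus (median 5.38). It was the only one of the 35 genes whose tissue ranges did not overlap over all libraries, against 14.9% of all genes tested. In WT it was higher in hippocampus by 2.23 ± 0.21 on the log2 scale (SE, edgeR adjusted p = 9.69e-11, 8 of 8 animals). Ogn had cortical values of 1.43, 3.54 and 13.3 CPM in WT (lowest, median and highest) and hippocampal values of 14.6, 17.5 and 22.3 CPM, which do not overlap. Its WT difference was 2.07 ± 0.36 (SE, 8 of 8 animals), and Dcn followed with 1.17 ± 0.32 (SE, 8 of 8 animals), with WT hippocampal values from 6.50 to 52.6 CPM that overlapped the cortical 3.16 to 11.1 CPM. Bgn (biglycan, 0.92 ± 0.18) and Col3a1 (collagen III, 0.90 ± 0.30) rose in the same direction. As a description, r of Lum to the other meningeal genes was 0.0324 to 0.47 in hippocampus and 0.62 to 0.77 in cortex. For Ogn it was -0.108 to 0.47 and 0.678 to 0.969. Which cells gave the hippocampal values of Lum and Ogn was not tested. Among smooth muscle genes, Acta2 rose by 1.01 ± 0.21 and Myh11 by 0.84 ± 0.17.

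Other fibroblast genes did not differ by the test. Col1a2 had a WT difference of -0.04 ± 0.27 and Igf2 of -0.06 ± 0.37. Both were within 0.05 of 0 with the opposite sign without the 6 animals, or without the animals of the 4 hippocampus libraries. Slc6a13 differed by 0.14 ± 0.31. Ptgds went the other way, at 281 ± 150 CPM in WT cortex (SD, n = 9) and 127 ± 38.0 CPM in WT hippocampus (SD, n = 8). Its WT difference was -1.10 ± 0.29 (SE, edgeR adjusted p = 0.0017, lower in 8 of 8 animals).

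Most endothelial, barrier, pericyte and collagen IV genes differed less than the smooth muscle genes Acta2 and Myh11. The 3 largest WT falls among all members past the test were Ptgds, Eng (-0.33 ± 0.07) and Esam (-0.25 ± 0.06), followed by Slc2a1 (-0.22 ± 0.05) and Abcb1a (-0.19 ± 0.07). Mfsd2a rose by 0.22 ± 0.05 (higher in 8 of 8 animals) and Vwf by 0.44 ± 0.17 (7 of 8 animals). Values not past the test were -0.01 ± 0.09 for Pecam1, -0.14 ± 0.07 for Flt1, -0.08 ± 0.06 for Slco1a4, -0.07 ± 0.09 for Rgs5 and 0.07 ± 0.05 for Col4a1.

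In all 4 genotypes, 9 of the 35 genes were higher in hippocampus (Mfsd2a, Vwf, Acta2, Myh11, Col3a1, Dcn, Lum, Ogn and Bgn), against 22.2% of all genes, and 1 (Ptgds) was lower, against 22.8%. Without the 6 animals 6 genes were higher in all 4 genotypes (Acta2, Bgn, Lum, Mfsd2a, Myh11 and Ogn). Vwf, Dcn and Col3a1 then missed the threshold in Slc25a1 het, at 0.49, 0.89 and 0.74 (edgeR adjusted p = 0.0652, 0.0686 and 0.0903), and Dcn and Col3a1 in double het. Without the animals of the 4 hippocampus libraries 7 were higher in all 4, Dcn and Col3a1 having missed the threshold in double het. In that fit 0 were lower: Ptgds in Mrpl40 het was at -0.62 (edgeR adjusted p = 0.0891). Igf2 passed in Mrpl40 het (1.14 ± 0.41, edgeR adjusted p = 0.018) and in no other genotype. The tissue difference of the Mrpl40 het effect on Igf2, which compares Mrpl40 het with WT, was 1.20 ± 0.56 and did not pass (edgeR adjusted p = 0.837).

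**Figure D4:**
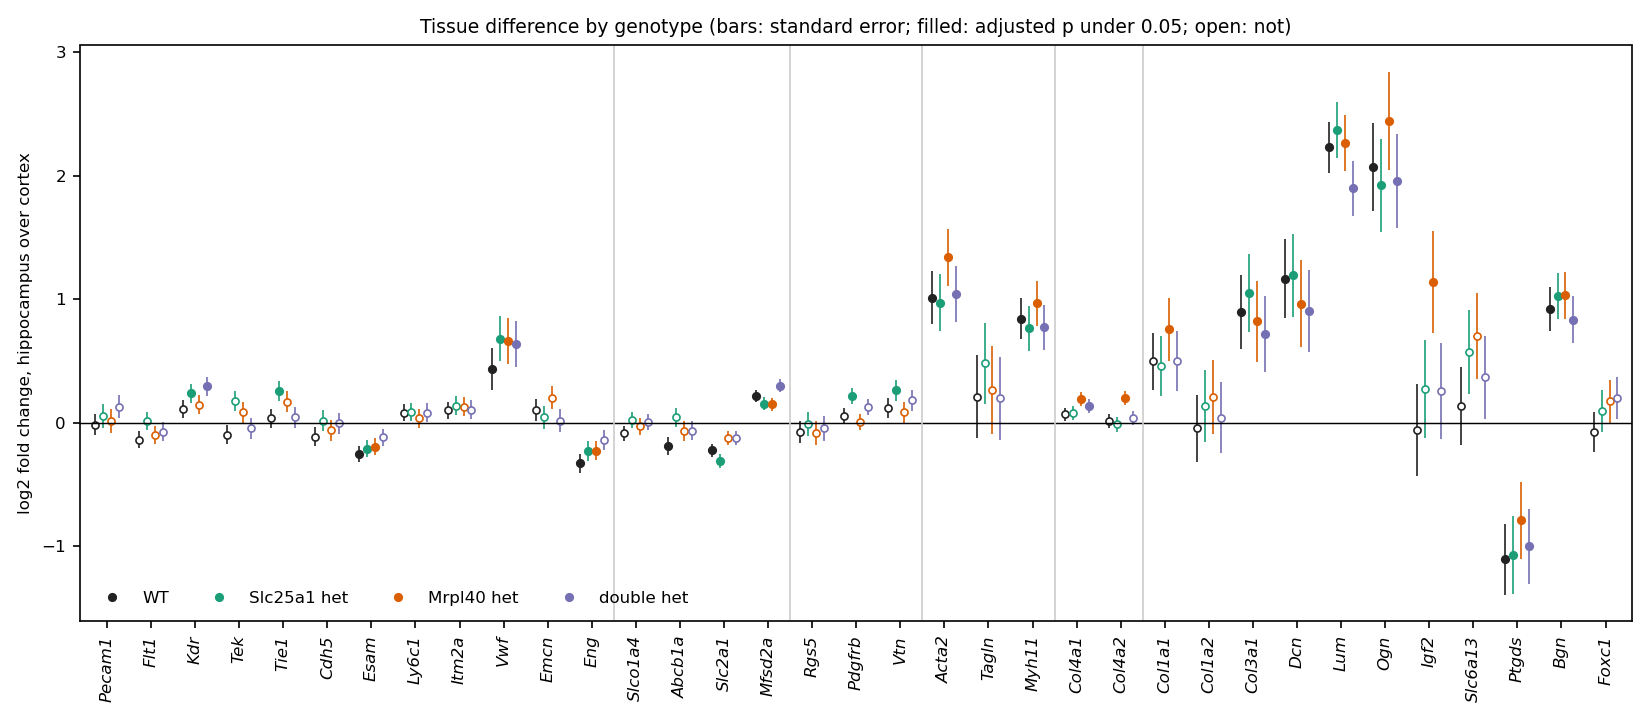
Log2 fold change of hippocampus over cortex (vertical axis) for the 35 genes in each of the 4 genotypes, with standard errors as bars; filled points passed the test at 0.05. Lum and Ogn lie near 2 in all genotypes, Ptgds between -0.79 and -1.10, and most endothelial and pericyte genes within 0.3 of 0.

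Other genes of these pathways, from lists of the same cell types, were compared between tissues in WT too. The background was again 60.6% of all genes, with 30.4% higher and 30.1% lower in hippocampus. In none of the lists given here and in the next paragraph was the share called, both directions together, above that background. Of 17 angiogenic ligands and receptors, 5 were higher and 5 lower in hippocampus. The higher ones were the VEGF co-receptors Nrp1 (2.28 ± 0.14) and Nrp2 (2.31 ± 0.13), which neurons also express, Angpt1 (1.77 ± 0.21), a ligand of Tek, Pgf and Vegfc. The lower ones were the ligands Vegfa (-0.37 ± 0.06), Vegfb, Pdgfa, Pdgfb (-0.47 ± 0.09), which acts on Pdgfrb, and Apln (-0.63 ± 0.09). Of 14 barrier Wnt and tight junction genes, 6 were higher and 0 lower, with Ocln, occludin, at 1.59 ± 0.09. Of 10 other barrier transporters, 3 were higher and 3 lower, and of 16 Notch and mural genes 5 and 3, with Jag1 at 1.41 ± 0.10 and Notch3 at -0.25 ± 0.06.

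Matrix genes split. Of 14 other basement membrane genes, 6 were higher and 2 lower: the laminin chain Lamb1 was higher by 1.98 ± 0.10 and Lama4 lower by 1.81 on the log2 scale (SE 0.08). Of 31 fibroblast and meningeal genes, 7 were higher and 7 lower. The lower ones included the collagens Col8a1 (-3.58 ± 0.22), Col6a1 (-1.86 ± 0.29), Col6a2 (-1.89 ± 0.21) and Col5a1 (-1.52 ± 0.27). The higher ones included the lysyl oxidase-like enzyme Loxl1 (1.90 ± 0.20), Col5a2 (1.59 ± 0.16), Fbln1 (1.40 ± 0.14) and the transcription factor Twist1 (2.27 ± 0.32). The median over the 31 genes was -0.05 and that over all genes 0.01. Neurons and glia express some of these genes too, and how much of each value is theirs was not tested. Of 7 choroid plexus markers tested, 2 were higher in hippocampus, Kl by 3.18 and Sostdc1 by 2.00 (background 30.4%), and 0 lower. The rest did not pass, among them Ttr (1.03 ± 0.50, edgeR adjusted p = 0.0762) and Aqp1 (-0.11 ± 0.26). The part of these markers in the result was not tested.

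Genotype was compared within each tissue, with all 4 genotypes in 1 fit and adjustment over 20394 genes in cortex and 20162 in hippocampus. None of the 35 genes passed edgeR's quasi-likelihood test in any of the 12 comparisons among genotypes or the 3 tests of a difference in genotype effect between tissues, and none passed the DESeq2 Wald test where it was run and gave an adjusted p (in 4 comparisons it gave none for Tagln, and in 2 of these none for Igf2). For the difference of the double het effect between tissues, 0.0234% of all genes passed. The background was low too: in cortex 0% of genes passed for Slc25a1 het, 0.0294% for Mrpl40 het and 0.0686% for double het against WT, and in hippocampus 0%, 0.00496% and 0.00992%. At an unadjusted p under 0.05, the counts of members in that order were 0, 1 and 1 in cortex and 1, 0 and 0 in hippocampus. For none of the 35 genes did the range of a het group lie apart from that of WT. The share of all genes whose ranges do so was 0.0343% for Slc25a1 het, 0.0343% for Mrpl40 het and 0.0981% for double het in cortex, and 0.169%, 0.0694% and 0.0446% in hippocampus.

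The smallest p in cortex belonged to endothelial genes and barrier transporters. Kdr had lowest, median and highest values of 11.4, 13.1 and 15.7 CPM in WT and 10.7, 12.0 and 13.2 CPM in double het, which overlap. Its double het difference was -0.16 ± 0.07 (edgeR adjusted p = 0.362), and Slco1a4 was at -0.13 ± 0.07 (adjusted p = 0.484). Abcb1a ran from 23.6 to 32.1 CPM in WT and from 21.1 to 27.4 CPM in Mrpl40 het, a difference of -0.17 ± 0.07 (edgeR adjusted p = 0.688). Pecam1 was next in Mrpl40 het (-0.13 ± 0.07, adjusted p = 0.723). For Slc25a1 het, Abcb1a (-0.13 ± 0.07) and Kdr (-0.11 ± 0.07) had the smallest p, with an edgeR adjusted p of 1.

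In hippocampus, Bgn ran from 14.6 to 17.4 CPM in WT and from 12.9 to 22.4 CPM in Slc25a1 het, a difference of 0.21 ± 0.08 (edgeR adjusted p = 0.591). Tek was next, at 0.17 ± 0.09 (adjusted p = 0.652). In Mrpl40 het, Ly6c1 was at -0.20 ± 0.10 (edgeR adjusted p = 0.608) and Col4a2 at 0.15 ± 0.09 (adjusted p = 0.642). In double het, Col4a1 was at 0.12 ± 0.07 and Foxc1, a transcription factor of the meninges, at 0.24 ± 0.15 (edgeR adjusted p = 0.989 for both).

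The wide spread between animals set the precision for the meningeal genes. Among Mrpl40 het cortex libraries, 33 of the 35 genes lay below WT with a median of -0.13, while 10403 of 20394 genes did and the median of all was -0.00196. The 11 meningeal genes all lay below. Ptgds averaged 191 ± 89.9 CPM (SD, n = 7) against 281 ± 150 CPM in WT (SD, n = 9), and its difference of -0.56 had an SE of 0.35 (edgeR adjusted p = 0.764). Igf2 was at -0.80 ± 0.47 and Ogn at -0.64 ± 0.48 (edgeR adjusted p = 0.752 and 0.811). Since these genes moved together within genotypes, their shared sign is not 11 separate observations. Endothelial, barrier and pericyte genes moved together as well. The counts out of 35, here and in hippocampus, are therefore not counts of separate observations either. Markers of perivascular macrophages also lay lower, 5 of 6 below WT and 0 called, with sums of 3.78 to 9.52 CPM in Mrpl40 het and 3.08 to 11.0 CPM in WT. So did 7 of 8 microglial (median -0.08), 7 of 8 astrocyte (-0.05) and 4 of 5 blood markers (-0.17). All 8 oligodendrocyte markers (median 0.29) and all 8 neuronal ones (0.07) lay above WT. None of these markers was called, and their part in the result was not tested. In hippocampus of the same label, 28 of 35 genes lay below WT, with a median of -0.09, while 10656 of 20162 genes did and the median of all was -0.00697. Dcn was at -0.71 ± 0.44. There all 8 astrocyte (median -0.09) and all 8 oligodendrocyte markers (-0.06) lay below WT, 6 of 8 neuronal markers (0.11) and 5 of 6 choroid plexus markers (1.13) above it, with 0 called, and their part was not tested either. In cortex labelled double het, 16 of the 35 genes lay above WT and 19 below.

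**Figure D5:**
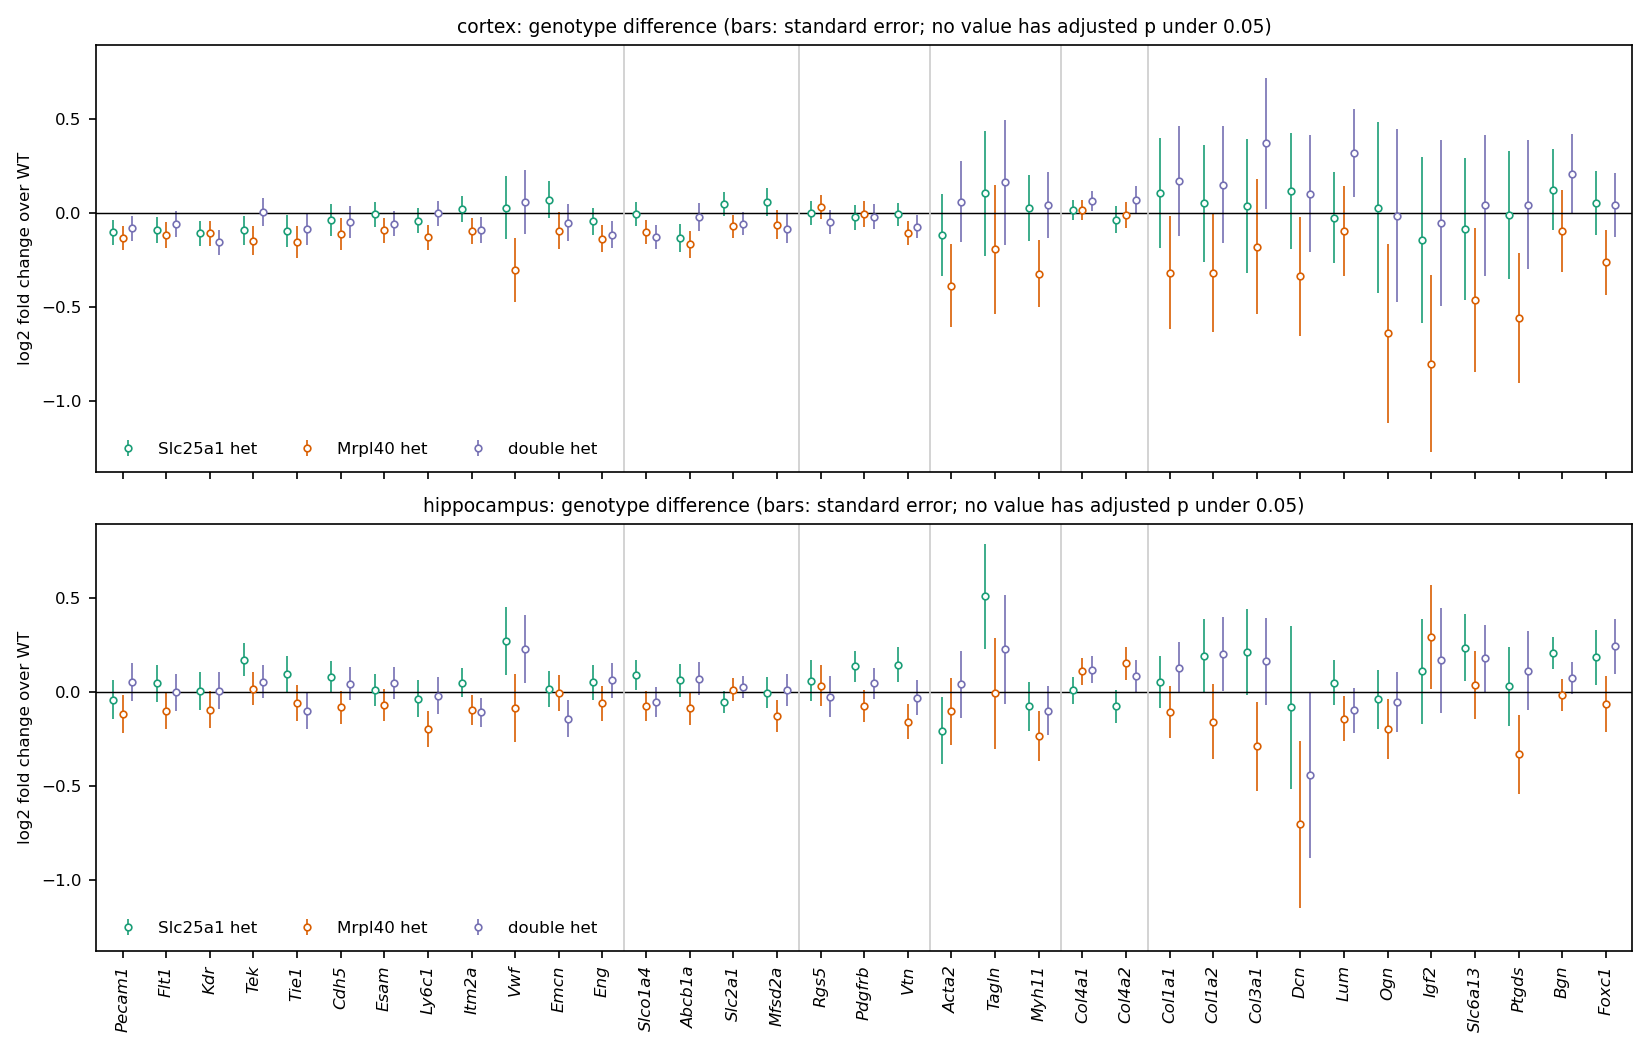
Log2 fold change over WT (vertical axis) with standard errors for the 35 genes in Slc25a1 het, Mrpl40 het and double het, in cortex (upper panel) and hippocampus (lower panel). No value passed the test; endothelial genes other than Vwf and the pericyte genes stay within 0.2 of 0, and the bars of the meningeal genes reach 0.48.

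Double het libraries were also set against those of each single het. The interaction is the double het effect minus both single het effects on the log2 scale. Among the 35 genes 0 passed, and 0.0588% of all genes passed for double het against Slc25a1 het in cortex and 0.0049% against Mrpl40 het. In the cortical interaction, Abcb1a (0.28 ± 0.11) and Tek (0.24 ± 0.11) had an unadjusted p under 0.05 (edgeR adjusted p = 0.827 and 0.906), and in hippocampus none did. Of the other vascular and meningeal genes listed above, none was called in a comparison with WT in either tissue.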

How the data were processed

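The authors deposited raw counts per gene, 1 column per library. The submitters' processing notes name FastQC, HISAT2, featureCounts, DESeq2 and the build mm39 (GRCm39), without versions. Coordinates and sequences here come from GENCODE vM21 and RefSeq on GRCm38, never from the files' build. Per the labels' protocols, libraries were directional and poly(A) selected. Of 57180 gene rows, 7074 had a blank symbol.

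Counts were analysed in R 4.3.3 with edgeR 4.0.16 (TMM, its filter on low counts, robust quasi-likelihood test, 4 genotypes in 1 fit per tissue) and Benjamini-Hochberg adjustment over all genes tested at 0.05. The animal, given in the labels for each library, was a block in the fits of both tissues. Errors marked ± beside log2 differences are standard errors, the size of the log2 difference divided by the root of the F statistic. Log2 CPM used a prior count of 2. Correlations used log2 CPM minus genotype means and 100000 resamples in Python 3.11.15. DESeq2 1.42.0 was an alternative. The scripts were tested on simulated data.

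The members and lists were chosen with earlier results of these data known. Named genes were the 2 members with the smallest p in each comparison with WT, the 3 largest rises and falls past the test between tissues, and representatives of each role. Others were chosen after their values were seen. The alternatives were no filter, DESeq2 size factors, the DESeq2 Wald test, only the genotypes compared, a replicate block or none, and fits without 6 animals. Fits without 4 hippocampus libraries were chosen after seeing the data. Between tissues, these fits left out both libraries of those animals.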

Additional observations from a re-analysis of the deposited data

Results flagged for a closer look

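In groups of 7 to 9 libraries, a library was singled out where its gap to the nearest other exceeded Dixon's critical value. This held in 16 of 280 groups (5.71%), and chance alone gives about 1 in 20. In cortex labelled double het, replicate 1 was the highest for Vwf (26.3 CPM, next 17 CPM), Vtn (68.7, next 53.4), Dcn (11.6, next 6.09) and Foxc1 (7.06, next 4.39). In cortex labelled Mrpl40 het, replicate 7 was the lowest for Abcb1a (21.1 CPM, next 24.7), Pdgfrb (23.6, next 28.4) and Vtn (45.6, next 51.8). In WT cortex, replicate 8 was the highest for Col1a1 (12.5 CPM, next 6.1) and replicate 3 the lowest for Col3a1 (0.27 CPM, next 0.968). In cortex labelled Slc25a1 het, replicate 4 was the lowest for Slc6a13 (0.975 CPM, next 3.95) and replicate 6 the highest for Tagln (0.716 CPM, next 0.336).

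In hippocampus, Slc25a1 het replicate 3, whose cerebellar markers summed to 846 CPM, was the highest for Ptgds (260 CPM, next 129), and replicate 5 the lowest for Tek (12.5 CPM, next 15.4). Mrpl40 het replicate 5, with ependymal markers at 29.5 CPM, was the highest for Rgs5 (124 CPM, next 78.9), and replicate 6 the highest for Esam (16.3 CPM, next 12.7). Double het replicate 1 was the highest for Abcb1a (34.4 CPM, next 27.3).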

How the results depend on the processing

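None of the 35 genes tested was called among genotypes under any alternative run, the replicate number as a block (0 called) included. With only the genotypes compared, Tagln failed the filter in 9 of 10 comparisons and 34 genes were tested. Animals that share a number across genotypes are different animals. Without the animal block, 14, 16, 15 and 9 genes were called between tissues in WT, Slc25a1 het, Mrpl40 het and double het, against 14, 17, 16 and 12 with it. In all, 118 counts of called genes stayed within 1.5 times of the reported count and 3 did not. For Slc25a1 het between tissues the count was 11 against 17 without the 6 animals. For genes lower in hippocampus in all 4 genotypes it was 0 against 1. This held with no filter, and without the animals of the 4 hippocampus libraries. Of the log2 differences of named genes, 261 kept direction and side of the threshold. Signs reversed for WT tissue differences near 0: Col1a2 (0.034 without the animals of the 4 hippocampus libraries, 0.0095 without the 6 animals), Igf2 (0.044 and 0.0097) and Pecam1 (0.0083 without the 6 animals). Igf2 and Ttr in hippocampus gave r = 0.0843 without the 2 farthest libraries. Ptgds in Mrpl40 het was at -0.78 with no filter (edgeR adjusted p = 0.0615). Without the 2 farthest libraries, Acta2 with Col1a2 (r = 0.376) and with Flt1 (r = 0.4) in hippocampus missed the threshold. The cause of these changes was not tested. Depth limits Tagln, Igf2 and Col3a1, whose lowest libraries held 2, 1 and 7 counts.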
